A study of Mus musculus with 6 samples.

Results

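The RAS, RAF, MEK and MAP kinase genes described here are 7 mouse genes of the MAP kinase cascade: Hras, Araf, Braf, Map2k1, Map2k2, Mapk3 and Mapk8. They were chosen by name, as tiers of the cascade that the study set beside PLK1, with earlier results of these data known. All 7 were found among the 54752 gene identifiers of the count table, of which 54723 matched a gene symbol, and all 7 passed the filter on low counts that left 9518 genes for testing.

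RNA-seq was performed on NIH/3T3, an immortalized mouse embryonic fibroblast line, with 2 libraries in each of 3 groups, all collected after 72 h. The vehicle group received PBS, the TGF-β1 + DMSO group received the cytokine TGFB1 at 1 ng/ml with DMSO as solvent, and the TGF-β1 + BI6727 group received TGFB1 at 1 ng/ml with BI6727 at 5 μM. TGF-β1 is the classical inducer of myofibroblast differentiation, and BI6727 (volasertib) is an inhibitor of the mitotic kinase PLK1. No library received DMSO alone, so TGF-β1 and DMSO cannot be told apart. All libraries come from 1 cell line, and no label says that the replicates were separate cultures, so p-values measure only the spread between these libraries.

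In the cascade, growth factor receptors load RAS proteins such as HRAS with GTP, and active RAS recruits RAF kinases to the membrane. RAF phosphorylates the dual-specificity kinases MEK1 and MEK2, which phosphorylate the extracellular signal-regulated kinases such as ERK1. The c-Jun N-terminal kinases form a parallel branch that responds to stress and cytokines. TGF-β receptors can feed into both branches beside their SMAD signalling, and in fibroblasts these branches are known for proliferation and matrix gene expression. The activity of these kinases is set mainly by phosphorylation, which read counts do not measure.

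Library totals ranged from 18362378 to 24452153 counts, with 18911 to 19891 genes detected. All 8 fibroblast markers passed the filter, from S100a4 at 7.48 to 22.02 normalized CPM (counts scaled to a common library total) up to Vim at 4014 to 5126, although 3 of them fell in TGF-β1 + DMSO and 5 fell in TGF-β1 + BI6727 against vehicle. Of the 4 myofibroblast markers, Acta2 ranged from 92.1 to 476 CPM, whereas Tagln stayed at or below 1.59 CPM and Cnn1 at or below 1.30 CPM. Myl9, which did not pass the filter, had 42 and 45 counts in vehicle, 297 and 354 in TGF-β1 + DMSO, and 210 and 238 in TGF-β1 + BI6727. The summed CPM of these 4 genes, mostly Acta2, was 96.1 and 103 in vehicle and 492 in both TGF-β1 + DMSO libraries. In TGF-β1 + BI6727 it was 338 and 361. Cnn1 went the other way at low counts, with 25 and 21 in vehicle and 6 and 2 in TGF-β1 + DMSO. In TGF-β1 + BI6727 Cnn1 had 8 and 14 counts.

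Among markers of other cell types, Krt18, Kdr, Tie1, Adgre1, Myod1 and Myog had 0 counts in every library. The 4 epithelial markers summed to at most 0.612 CPM and the 4 skeletal muscle markers, nearly all of it Des, to at most 1.91 CPM. The 4 macrophage and leukocyte markers, mostly Cd68, summed to 4.18 to 5.60 CPM, with overlapping groups. Pecam1 and Cdh5 of the 4 endothelial markers did have counts, and the list summed to 0.208 and 0.728 CPM in vehicle, 2.89 and 3.57 in TGF-β1 + DMSO, and 1.89 and 2.32 in TGF-β1 + BI6727. The 4 adipocyte markers, mostly Lpl, summed to 35.3 and 58.8 CPM in vehicle, 6.55 and 8.21 in TGF-β1 + DMSO, and 4.73 and 7.12 in TGF-β1 + BI6727. The fibroblast sum was 6161 to 6221 CPM in TGF-β1 + BI6727, below vehicle (7136 to 7338) and TGF-β1 + DMSO (6871 to 7870). These sums thus moved with treatment for the myofibroblast, endothelial, adipocyte and fibroblast lists. Their part in the values of the 7 genes was not tested. The 2 TGF-β1 + DMSO libraries stood apart from each other: the SD of the log2 difference between replicates was 0.38 there, against 0.16 in vehicle and 0.15 in TGF-β1 + BI6727. In bulk RNA, fewer cells of a kind and less RNA per cell cannot be told apart.

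Among the 7 genes, Map2k1 rose in both groups that received TGF-β1: its level doubled in TGF-β1 + DMSO (fold 2.05) and was at the same height in TGF-β1 + BI6727 (fold 2.06 against vehicle). Mapk8 rose and Mapk3 fell in TGF-β1 + BI6727 against vehicle, while 0 of the 7 passed the threshold when TGF-β1 + BI6727 was compared with TGF-β1 + DMSO. Of all tested genes, 23.0% passed in TGF-β1 + DMSO against vehicle, 24.5% in TGF-β1 + BI6727 against vehicle and 0% between the treated groups. A gene was called at the study's threshold, an adjusted p below 0.01 with a fold change above 2, and is said to have risen or fallen at an adjusted p below 0.05 with no minimum fold, both from the quasi-likelihood test of edgeR, with p-values adjusted over the 9518 genes by the method of Benjamini and Hochberg.

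The promoters of Map2k1, Map2k2 and Mapk8 are shown because these are the MEK gene that rose, its paralog that did not pass the threshold, and the gene with the largest difference between the TGF-β1-treated groups. Each run holds the 250 bases before the gene start in RefSeq on GRCm38.p6, read 5′ to 3′ on the strand of the gene, and the capitals mark GC boxes (GGGCGG or CCGCCC) and CCAAT boxes (CCAAT or ATTGG). Of the 7 genes, 6 had an entry in the promoter table, and Mapk3 was the other.
Map2k1 (chr9:64253606-64253855, minus strand): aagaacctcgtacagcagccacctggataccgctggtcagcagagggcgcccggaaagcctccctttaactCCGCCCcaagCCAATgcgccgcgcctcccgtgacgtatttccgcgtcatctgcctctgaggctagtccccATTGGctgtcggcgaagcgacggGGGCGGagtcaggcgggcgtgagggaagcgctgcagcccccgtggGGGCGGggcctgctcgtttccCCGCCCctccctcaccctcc
Map2k2 (chr10:81105665-81105914, plus strand): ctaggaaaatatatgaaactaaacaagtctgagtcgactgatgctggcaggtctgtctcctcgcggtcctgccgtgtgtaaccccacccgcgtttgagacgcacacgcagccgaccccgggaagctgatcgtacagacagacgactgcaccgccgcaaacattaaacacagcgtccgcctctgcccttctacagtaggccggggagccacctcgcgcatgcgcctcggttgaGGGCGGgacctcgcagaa
Mapk8 (chr14:33447159-33447408, minus strand): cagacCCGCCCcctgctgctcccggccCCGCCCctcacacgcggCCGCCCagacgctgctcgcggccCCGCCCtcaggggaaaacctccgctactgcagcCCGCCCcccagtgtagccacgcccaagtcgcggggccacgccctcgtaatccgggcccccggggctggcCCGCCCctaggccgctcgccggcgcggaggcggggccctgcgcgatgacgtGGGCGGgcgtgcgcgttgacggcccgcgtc
The Map2k1 window held 4 GC boxes and 2 CCAAT boxes, the Map2k2 window 1 GC box, and the Mapk8 window 7 GC boxes. Searched on both strands, a GC box was found in 32.7% and a CCAAT box in 33.8% of the 32851 promoter windows of this length. The SMAD core letters CAGAC or GTCTG, which 42.2% of windows held, occurred 4 times for Map2k2 and 2 times for Mapk8, and these letters were not in the Map2k1 window. GC content was 68.4% for Map2k1, 59.6% for Map2k2 and 79.2% for Mapk8, against a median of 52.4% over all windows.

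The MEK paralogs are alike in coding sequence, which bears on whether short reads can be assigned to them. The longest stretch shared by the coding sequences of Map2k1 and Map2k2 spans exons 3 and 4 in both and is 56 bases long, slightly more than a 50-base read.
Map2k1 and Map2k2 (chr9:64205181-64212631, minus strand, and chr10:81115125-81118159, plus strand, GRCm38.p6): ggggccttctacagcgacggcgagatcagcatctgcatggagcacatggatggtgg
Only 0.207% of the 50-base windows of Map2k1 transcripts were also found in another gene, and 0.122% of those of Map2k2. Further down the cascade, the activation motif differs between the ERK branch, where MEK1 and MEK2 phosphorylate it, and the JNK branch, where other MAP2 kinases do. In the runs below, capitals mark the codons of the activation motif, Thr-Glu-Tyr in Mapk3 exon 4 and Thr-Pro-Tyr in Mapk8 exon 6.
Mapk3 (chr7:126763443-126763481, plus strand, GRCm38.p6): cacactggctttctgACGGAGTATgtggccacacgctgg
Mapk8 (chr14:33392988-33393026, minus strand, GRCm38.p6): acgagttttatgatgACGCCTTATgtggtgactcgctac

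Levels can be compared between genes only per length, so CPM was divided by the summed exonic length in kilobases. In vehicle, Mapk3 was the highest of the 7 at 55.9 ± 0.452 CPM per kilobase (SD, n = 2), followed by Map2k2 at 41.7 ± 0.719, Map2k1 at 36.4 ± 0.237, Hras at 24.5 ± 1.26, Araf at 11.1 ± 1.06, Mapk8 at 2.05 ± 0.0158 and Braf at 1.82 ± 0.0110 CPM per kilobase. All neighbours in this order were separated by more than their SDs. In TGF-β1 + BI6727 the order was led by Map2k1 at 74.9 ± 1.34 CPM per kilobase, and Mapk3 at 42.0 ± 2.71 came after Map2k2 at 49.9 ± 1.69 CPM per kilobase. In TGF-β1 + DMSO, Map2k1 led as well at 74.4 ± 1.56 CPM per kilobase, and Map2k2 at 51.5 ± 7.42 and Mapk3 at 49.1 ± 2.58 CPM per kilobase did not differ beyond their spread. The order of the upper 3 genes depends on the length used: per kilobase of the longest coding transcript, Map2k2 led in every group, at 98.2 ± 1.69 in vehicle, 121 ± 17.5 in TGF-β1 + DMSO and 117 ± 3.98 CPM per kilobase in TGF-β1 + BI6727. The order of Hras, Araf, Mapk8 and Braf was the same in all groups with both lengths. Among the tested genes, Braf lay between the 1.43 and 3.41 percentiles of level per exonic kilobase and Mapk8 between the 4.36 and 12.3 percentiles, whereas the lowest Map2k1 library was at the 80.4 percentile.

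**Figure D1:**
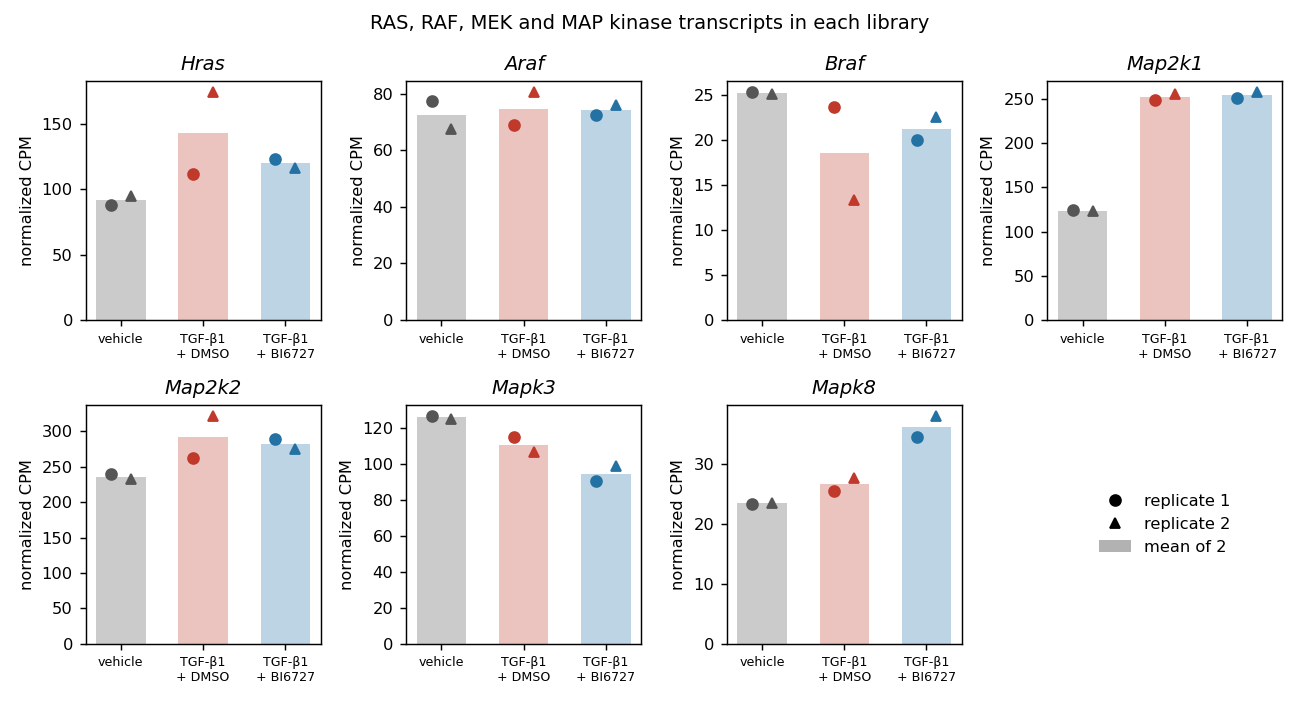
Normalized CPM (vertical axes, from 0) of the 7 genes in the 6 libraries, with the group on the horizontal axis, circles for replicate 1, triangles for replicate 2 and bars for the mean of 2. Map2k1 moves from 123 and 124 CPM in vehicle to between 249 and 257 CPM in the 4 TGF-β1 libraries, and the replicate points of Hras and Braf lie far apart in TGF-β1 + DMSO.

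Hras (chr7:141189105-141194005, minus strand, mm10), the small GTPase at the top of the cascade, was at 88.3 and 94.9 CPM in the vehicle libraries, 112 and 174 CPM in TGF-β1 + DMSO, and 123 and 117 CPM in TGF-β1 + BI6727. Both treated groups lay above vehicle without overlap, and the TGF-β1 + DMSO libraries spanned the TGF-β1 + BI6727 libraries, the highest value being TGF-β1 + DMSO replicate 2. The log2 fold change of TGF-β1 + DMSO against vehicle was 0.64 (SE 0.192, 95% interval 0.19 to 1.09), with an adjusted p of 0.0507 in edgeR, just outside the threshold. Against TGF-β1 + DMSO, TGF-β1 + BI6727 differed by a log2 fold change of -0.25 (95% interval -0.70 to 0.19, edgeR adjusted p = 0.838).

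The Hras value rested on which TGF-β1 + DMSO library was used. Without TGF-β1 + DMSO replicate 1 the log2 fold change against vehicle was 0.92, and without replicate 2 it was 0.30. Either fit leaves 1 library in that group and no spread within it, so only effect sizes are given here. The difference between TGF-β1 + BI6727 and TGF-β1 + DMSO was -0.54 without replicate 1 and 0.09 without replicate 2, so its sign turned with the library left out.

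Nras, another RAS GTPase gene, had group means of 98.2 CPM in vehicle, 102 CPM in TGF-β1 + DMSO and 89.8 CPM in TGF-β1 + BI6727. It did not pass the threshold in TGF-β1 + DMSO against vehicle, with a log2 fold change of 0.06 (95% interval -0.17 to 0.28, edgeR adjusted p = 0.684).

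Araf (chrX:20797814-20860519, plus strand), the X-linked RAF kinase, was at 77.4 and 67.5 CPM in vehicle, 68.8 and 80.4 CPM in TGF-β1 + DMSO, and 72.3 and 75.8 CPM in TGF-β1 + BI6727. The 3 groups overlapped. Its log2 fold change was 0.04 in TGF-β1 + DMSO against vehicle (95% interval -0.24 to 0.33) and -0.01 in TGF-β1 + BI6727 against TGF-β1 + DMSO (95% interval -0.30 to 0.27), with edgeR adjusted p values of 0.816 and 0.988.

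Braf (chr6:39603237-39725463, minus strand), the RAF kinase with the highest basal activity, was at 25.3 and 25.1 CPM in vehicle, 23.7 and 13.4 CPM in TGF-β1 + DMSO, and 20.0 and 22.5 CPM in TGF-β1 + BI6727. Both treated groups lay below vehicle without overlap, and the lowest library by far was TGF-β1 + DMSO replicate 2. The log2 fold change of TGF-β1 + DMSO against vehicle was -0.44 (SE 0.249, 95% interval -1.03 to 0.14, edgeR adjusted p = 0.232). Without TGF-β1 + DMSO replicate 1 it was -0.92, and without replicate 2 it was -0.08. TGF-β1 + BI6727 differed from TGF-β1 + DMSO by a log2 fold change of 0.20 (95% interval -0.39 to 0.79, edgeR adjusted p = 0.891). This difference became 0.67 without TGF-β1 + DMSO replicate 1 and -0.16 without replicate 2.

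Per exonic kilobase, Araf held most of the reads of Araf plus Braf in every library. Its share was 86.6% and 85.1% in vehicle, 86.0% and 92.7% in TGF-β1 + DMSO, and 88.4% and 87.7% in TGF-β1 + BI6727. The highest share fell in the library with the lowest Braf.

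Gene length moved with the difference between the TGF-β1 + DMSO libraries. Replicate 2 minus replicate 1 had a median log2 difference of 0.42 in the shortest of 10 length bins of tested genes (median length 796 bases) and of -0.47 in the longest bin (median length 12548 bases). Braf, with 13862 exonic bases the longest of the 7, differed by -0.82 on the log2 scale. Hras, with 3733 bases, differed by 0.64, although the median of its length bin was -0.01. In size, these differences were at the 96.7 and 91.1 percentiles of all tested genes, whereas Map2k1 differed by 0.04, at the 10.1 percentile. In a fit with length offsets, which level out the trend on gene length within every library, the log2 fold change of Hras in TGF-β1 + DMSO against vehicle was 0.63 (edgeR adjusted p = 0.0137) and that of Map2k2 0.38 (edgeR adjusted p = 0.0341), both past the threshold. For Braf it was -0.24 (edgeR adjusted p = 0.239) and for Mapk8 0.41 (edgeR adjusted p = 0.0800), neither of them past it. In the same fit, Braf differed by 0.09 between TGF-β1 + BI6727 and TGF-β1 + DMSO (edgeR adjusted p = 0.864) and by -0.15 between TGF-β1 + BI6727 and vehicle (edgeR adjusted p = 0.466).

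**Figure D2:**
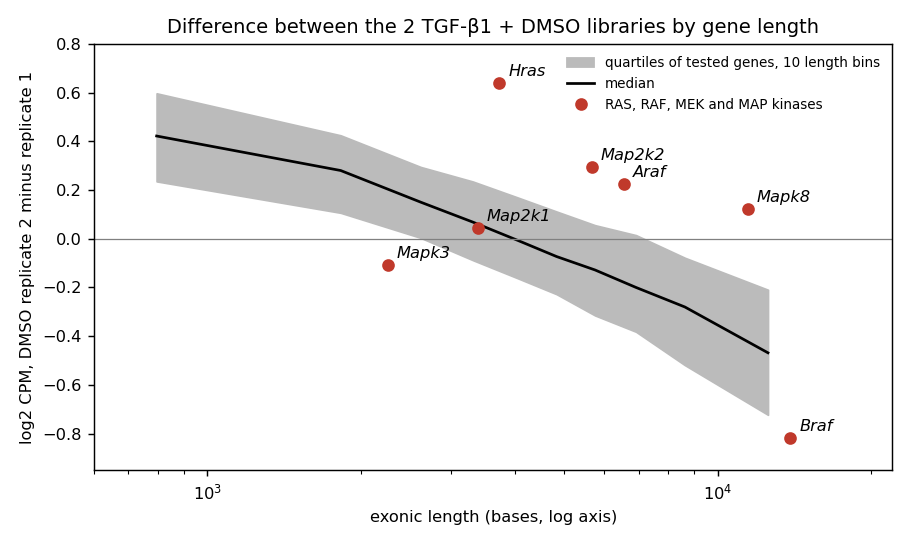
Difference in log2 CPM between TGF-β1 + DMSO replicate 2 and replicate 1 (vertical axis) against summed exonic length in bases (horizontal log axis). The black line is the median and the grey band the quartiles of all tested genes in 10 length bins, falling from a median of 0.42 to -0.47, and the red points are the 7 genes, of which Hras (0.64) lies highest and Braf (-0.82) lowest.

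Map2k1 (chr9:64185770-64253631, minus strand), which encodes MEK1, was at 124 and 123 CPM in vehicle, 249 and 256 CPM in TGF-β1 + DMSO, and 251 and 257 CPM in TGF-β1 + BI6727. All 4 libraries with TGF-β1 lay at about 2 times the vehicle level, and the ranges of the treated groups overlapped each other. The log2 fold change of TGF-β1 + DMSO against vehicle was 1.03 (SE 0.0871, 95% interval 0.83 to 1.24), with an edgeR adjusted p of 0.000344. TGF-β1 + BI6727 against vehicle gave 1.04 (SE 0.0871, 95% interval 0.84 to 1.25), with an edgeR adjusted p of 0.000290. TGF-β1 + BI6727 differed from TGF-β1 + DMSO by 0.01 on the log2 scale, and the 95% interval of that difference ran from -0.19 to 0.21 (edgeR adjusted p = 0.985).

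The rise of Map2k1 lay close to the fold change of 2 that the study's threshold asks for. Over 16 other settings each, its log2 fold change against vehicle stayed between 1.01 and 1.05 in TGF-β1 + DMSO. In TGF-β1 + BI6727 it stayed between 1.02 and 1.06. The rise at an adjusted p below 0.05 was kept in the settings with 2 libraries a group. Fits with 1 library left out leave 1 library in a group, so whether the call at the study's threshold held in them was not judged.

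Map2k2 (chr10:81105915-81133975, plus strand), which encodes MEK2, was at 239 and 233 CPM in vehicle, 262 and 321 CPM in TGF-β1 + DMSO, and 289 and 276 CPM in TGF-β1 + BI6727. Every treated library was above both vehicle libraries. The log2 fold change was 0.31 in TGF-β1 + DMSO (SE 0.117, 95% interval 0.03 to 0.58, edgeR adjusted p = 0.101) and 0.26 in TGF-β1 + BI6727 (95% interval -0.02 to 0.53, edgeR adjusted p = 0.152), neither past the threshold. TGF-β1 + BI6727 against TGF-β1 + DMSO gave -0.05 (95% interval -0.32 to 0.23, edgeR adjusted p = 0.946). Without TGF-β1 + DMSO replicate 1, the value of TGF-β1 + DMSO against vehicle was 0.44, and without replicate 2 it was 0.16.

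The share of Map2k1 among MEK1 and MEK2 reads does not depend on scaling between libraries. Per exonic kilobase it was 46.4% and 46.8% in vehicle, 61.3% and 57.1% in TGF-β1 + DMSO, and 59.2% and 60.9% in TGF-β1 + BI6727. The share was higher in all 4 treated libraries than in both vehicle libraries, by 12.6 percentage points in TGF-β1 + DMSO and 13.4 in TGF-β1 + BI6727, and the treated groups overlapped. An exact permutation test of either difference gave a two-sided p of 0.33, the smallest that 2 libraries against 2 allow. Per kilobase of the longest coding transcript the mean share was 34.0% in vehicle, 46.2% in TGF-β1 + DMSO and 47.1% in TGF-β1 + BI6727, so the difference was in the same direction but Map2k1 stayed below Map2k2. The sum of the MEK reads per exonic kilobase was 78.8 and 77.4 CPM in vehicle and between 120 and 132 CPM in the 4 treated libraries.

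**Figure D3:**
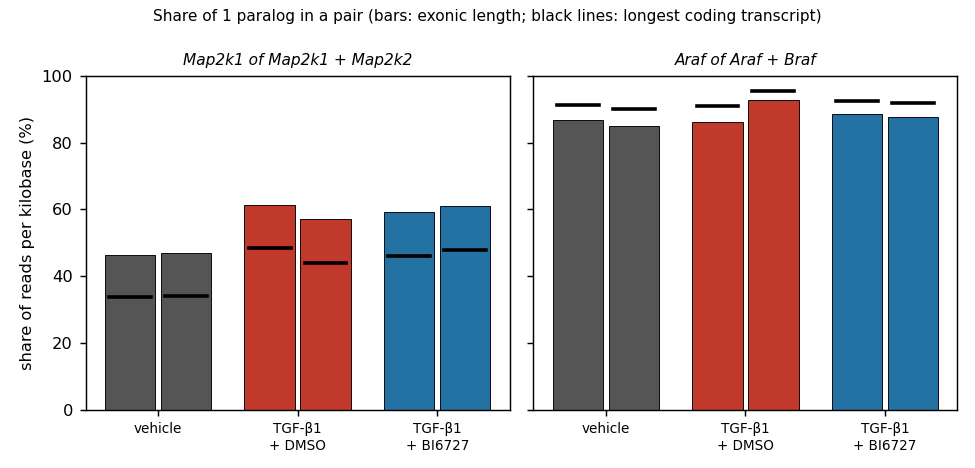
Share in percent (vertical axis, 0 to 100) of 1 paralog in the reads per kilobase of a pair of genes, 1 bar for each library in the order of replicates 1 and 2, grouped by treatment, with the share per kilobase of the longest coding transcript as a black line. The Map2k1 share goes from 46.4% and 46.8% in vehicle to between 57.1% and 61.3% in the treated libraries, and the Araf share lies between 85.1% and 92.7% in all 6 libraries.

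Mapk3 (chr7:126759601-126765819, plus strand), which encodes ERK1, was at 127 and 125 CPM in vehicle, 115 and 107 CPM in TGF-β1 + DMSO, and 90.5 and 99.1 CPM in TGF-β1 + BI6727. The 3 groups did not overlap and lay in that order from high to low. Its level fell in TGF-β1 + BI6727 against vehicle by 0.41 on the log2 scale (SE 0.0968, 95% interval -0.64 to -0.18, edgeR adjusted p = 0.0212). The log2 fold change of TGF-β1 + DMSO against vehicle was -0.19 (95% interval -0.41 to 0.04, edgeR adjusted p = 0.201) and that of TGF-β1 + BI6727 against TGF-β1 + DMSO was -0.23 (95% interval -0.45 to 0.00136, edgeR adjusted p = 0.745), so neither step passed the threshold alone. With any 1 vehicle or TGF-β1 + BI6727 library left out, the log2 fold change against vehicle was -0.48 to -0.35. These fits leave 1 library in a group, so whether the fall passed in them was not judged. With 1 library left out, the difference between the treated groups ranged from -0.29, without TGF-β1 + DMSO replicate 2, to -0.16.

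Mapk8 (chr14:33377898-33447158, minus strand), which encodes the stress-activated kinase JNK1, was at 23.3 and 23.6 CPM in vehicle, 25.5 and 27.8 CPM in TGF-β1 + DMSO, and 34.5 and 38.04 CPM in TGF-β1 + BI6727. The groups did not overlap and lay in that order from low to high. Its level rose in TGF-β1 + BI6727 against vehicle, with a log2 fold change of 0.63 (SE 0.126, 95% interval 0.34 to 0.93, edgeR adjusted p = 0.0115) and a fold of 1.55. TGF-β1 + DMSO against vehicle gave 0.19 (95% interval -0.11 to 0.48, edgeR adjusted p = 0.315). TGF-β1 + BI6727 against TGF-β1 + DMSO gave 0.45 (SE 0.125, 95% interval 0.15 to 0.74), the largest difference among the 7 genes in that comparison, with an edgeR adjusted p of 0.598 over all genes.

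The Mapk8 values stood on between 449 and 919 counts a library. The log2 fold change between TGF-β1 + BI6727 and TGF-β1 + DMSO was 0.39 without TGF-β1 + DMSO replicate 1 and 0.50 without replicate 2. Over 16 other settings this difference ranged from 0.31 to 0.51. In the fits with 1 library left out it ranged from 0.38 to 0.51. With any 1 vehicle or TGF-β1 + BI6727 library left out, the log2 fold change against vehicle was 0.56 to 0.70. These fits leave 1 library in a group, so whether the rise passed in them was not judged.

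**Figure D4:**
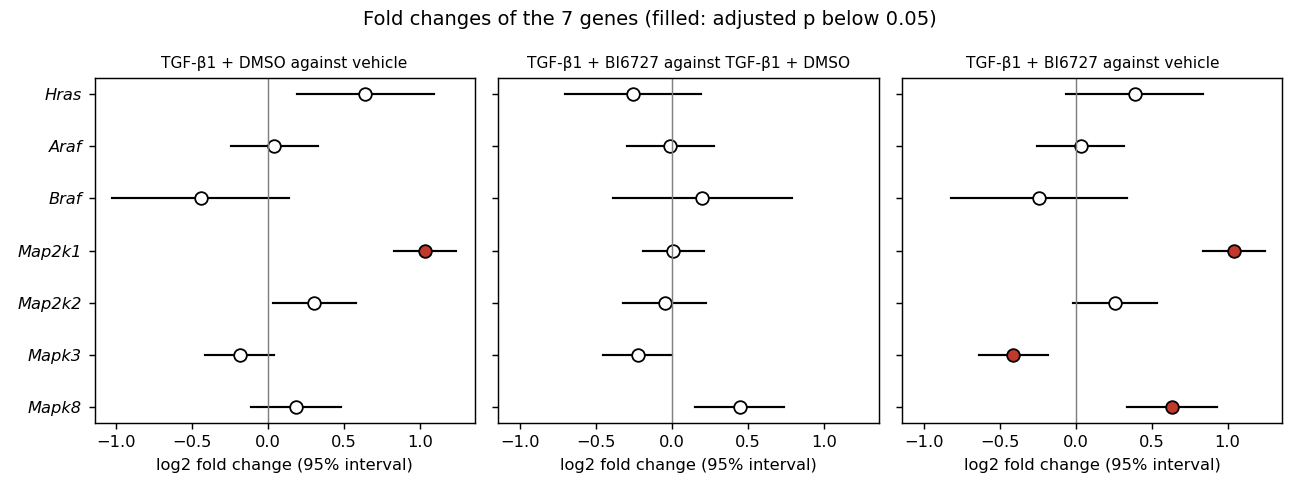
Log2 fold change (horizontal axes) of the 7 genes with 95% intervals as lines, 1 panel for each comparison, filled points marking an edgeR adjusted p below 0.05. Map2k1 is filled at 1.03 and 1.04 against vehicle and lies at 0.01 between the treated groups, Mapk3 (-0.41) and Mapk8 (0.63) are filled for TGF-β1 + BI6727 against vehicle, and no point is filled in the middle panel.

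Counted together, 1 of the 7 genes was called in TGF-β1 + DMSO against vehicle at the study's threshold, where 5.10% of all tested genes were called, and the same 1 passed an adjusted p below 0.05, as did 23.0% of all tested genes. In TGF-β1 + BI6727 against vehicle 1 was called, against 5.31% of all tested genes, and 3 passed an adjusted p below 0.05, against 24.5%. Groups did not overlap for 6 of the 7 genes in both comparisons with vehicle, as for 62.9% of all tested genes with TGF-β1 + DMSO and 76.8% with TGF-β1 + BI6727. These comparisons share the vehicle libraries.

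In TGF-β1 + BI6727 against TGF-β1 + DMSO, 0 of the 7 genes passed an adjusted p below 0.05 in edgeR, as did 0% of all tested genes, and DESeq2 passed 0 of the 7 and 39 of all 9518 genes. At an unadjusted p below 0.05 there was 1 of the 7, Mapk8, against 6.68% of all tested genes. Groups did not overlap for 2 of the 7, Mapk3 and Mapk8, against 34.1% of all tested genes. The median size of the log2 fold change was 0.20 over the 7 genes and 0.11 over all tested genes here, and 0.31 and 0.25 in TGF-β1 + DMSO against vehicle. The smallest adjusted p over all 9518 genes in this comparison was 0.0565.

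The 3 tested genes whose log2 CPM followed Map2k1 most closely over the 6 libraries were Col7a1, Vegfa and Tgif1, with Pearson correlations of 0.9991, 0.9989 and 0.9986. Col7a1, the chain of the anchoring-fibril collagen, was at 1.71 and 1.87 CPM in vehicle and between 48.9 and 57.1 CPM in the treated libraries, and thus passed the filter on low counts through the treated libraries alone. Vegfa, the endothelial growth factor, was at 96.9 and 103 CPM in vehicle and between 581 and 609 CPM in the treated libraries. Tgif1, a homeobox co-repressor of SMAD proteins, was at 79.9 and 78.5 CPM in vehicle and between 186 and 199 CPM in the treated libraries. The points share libraries and the contrast between vehicle and treatment, and 102 tested genes correlated with Map2k1 above 0.99, so this likeness is a description only.

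The rest of the cascade was followed with 6 lists of other isoforms, RAS activators, GTPase-activating proteins, scaffolds, MAP3 kinases and effectors. Of their 78 tested genes, 19 (24.4%) passed an adjusted p below 0.05 in TGF-β1 + DMSO against vehicle, against 23.0% of all tested genes, and none of the 19 reached a fold of 2. The medians of the lists lay between -0.09 and 0.10 on the log2 scale, against -0.0045 over all tested genes. In TGF-β1 + BI6727 against vehicle 21 of the 78 (26.9%) passed, against 24.5% of all tested genes. In TGF-β1 + BI6727 against TGF-β1 + DMSO, 0 of the 78 passed in edgeR and 0 in DESeq2, which passed 39 of all 9518 genes. At an unadjusted p below 0.05 there were 6 of the 78 (7.69%), against 6.68% of all tested genes.

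Among the other RAS, RAF, MEK and MAP kinase isoforms, 2 of 18 tested genes rose and 2 fell in TGF-β1 + DMSO against vehicle. Mapk6, the atypical MAP kinase ERK3, rose from a mean of 159.7 to 232.9 CPM (log2 fold change 0.54, edgeR adjusted p = 0.0202), although 5.03% of its 50-base windows also occur in another annotated gene. Rras, a RAS relative linked to adhesion, rose from 49.1 to 71.3 CPM (0.54, edgeR adjusted p = 0.0421). Map2k6, 1 of the kinases that activate p38, fell from 24.1 to 15.8 CPM (log2 fold change -0.61, edgeR adjusted p = 0.0180). Mras, a RAS relative that acts with SHOC2 on RAF, fell from 73.0 to 52.8 CPM (-0.47, edgeR adjusted p = 0.0167). All 4 also passed, in the same direction, in TGF-β1 + BI6727 against vehicle, where 4 isoforms rose and 3 fell. Of all tested genes, 24.5% passed in that comparison. The 2 comparisons share the vehicle libraries, here and for the lists below.

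Upstream and around RAF, changes went in both directions. Of 10 tested adaptors and exchange factors 0 rose and 1 fell: Frs2, the docking protein of fibroblast growth factor receptors, fell from 80.6 to 42.5 CPM (log2 fold change -0.92, edgeR adjusted p = 0.00437). Of 8 tested RAS GTPase-activating proteins, which switch RAS off, 1 rose and 0 fell: Rasa4 rose from 54.5 to 96.3 CPM (0.82, edgeR adjusted p = 0.00137), with 3.53% of its exonic bases overlapped by other genes. Both genes passed in the same direction in TGF-β1 + BI6727 against vehicle, at log2 fold changes of -0.70 (edgeR adjusted p = 0.0121) for Frs2 and 0.87 (edgeR adjusted p = 0.000970) for Rasa4. TGF-β1 + BI6727 and TGF-β1 + DMSO differed by 0.23 for Frs2 and 0.05 for Rasa4, neither past the threshold.

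Of 20 tested scaffolds and RAF regulators, 4 rose and 2 fell in TGF-β1 + DMSO against vehicle. Mapk8ip1, the scaffold JIP1 of the JNK branch, fell from 55.2 to 32.1 CPM (log2 fold change -0.78, edgeR adjusted p = 0.00341), and Ksr1, the scaffold of RAF, MEK and ERK, fell from 26.3 to 16.6 CPM (-0.66, edgeR adjusted p = 0.0355). Pea15a, which holds ERK in the cytoplasm, rose from 165.9 to 233.5 CPM (0.49, edgeR adjusted p = 0.00911), and Ywhag, a 14-3-3 protein that binds phosphorylated RAF, rose from 420.0 to 580.3 CPM (0.47, edgeR adjusted p = 0.0175). Of 9 tested MAP3 kinases, 1 rose and 1 fell: Map3k20, the ribotoxic stress kinase ZAK upstream of p38 and JNK, rose from 47.5 to 78.0 CPM (0.72, edgeR adjusted p = 0.00897), and Map3k14, the NF-κB-inducing kinase, fell from 16.8 to 11.2 CPM (-0.58, edgeR adjusted p = 0.0282). Against vehicle, Map3k14 did not pass in TGF-β1 + BI6727 (-0.38, edgeR adjusted p = 0.0979). The other scaffolds and MAP3 kinases named here passed there in the same direction.

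Downstream of the MAP kinases, 2 of 13 tested effector kinases and substrates rose and 3 fell in TGF-β1 + DMSO against vehicle. Cited2, a transcriptional co-regulator rather than a kinase, fell from 134.8 to 72.9 CPM (log2 fold change -0.89, edgeR adjusted p = 0.00377). Mapkapk3, a kinase activated by p38, fell from 21.9 to 15.1 CPM (-0.53, edgeR adjusted p = 0.0300), and Rps6ka3, the ERK-activated kinase RSK2, fell from 58.8 to 41.8 CPM (-0.49, edgeR adjusted p = 0.0309). Mknk2, which phosphorylates the translation factor eIF4E on ERK or p38 signalling, rose from 136.6 to 172.0 CPM (0.33, edgeR adjusted p = 0.0342). In TGF-β1 + BI6727 against vehicle, 1 of the 13 rose and 3 fell. Mknk2 rose there, and Cited2, Mapkapk3 and another gene of the list fell. Rps6ka3 did not pass in that comparison (-0.35, edgeR adjusted p = 0.0854).

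**Figure D5:**
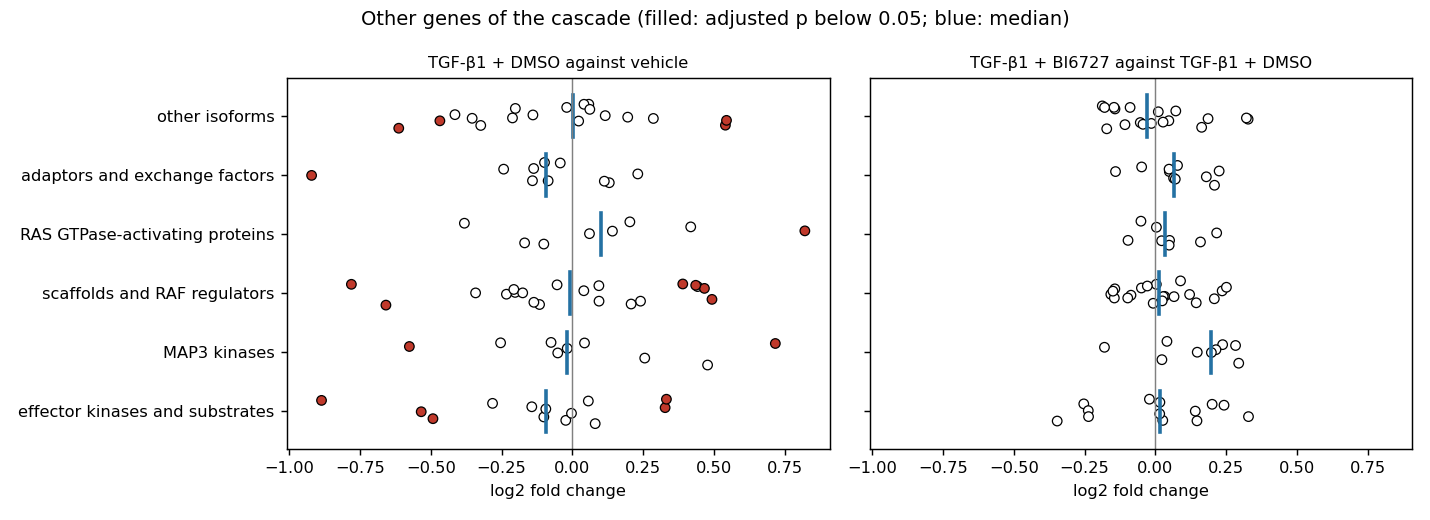
Log2 fold change (horizontal axes) of each tested gene in the 6 lists of other cascade genes (rows), for TGF-β1 + DMSO against vehicle on the left and TGF-β1 + BI6727 against TGF-β1 + DMSO on the right, with red points at an edgeR adjusted p below 0.05 and blue lines at the list medians. On the left 19 points are red, on both sides of 0 and none beyond a fold of 2, and on the right 0 points are red.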

How the data were processed

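RNA was sequenced from 6 NIH/3T3 libraries after removal of ribosomal RNA (single-end 50-base reads). The authors mapped the reads to mm10 with Subjunc (Subread 1.6.4), assigned them to genes of Gencode M20 using featureCounts, and deposited the raw counts per gene. The strand setting is not given in the sources used here. No column of other samples was in the table. Totals per library ranged from 18362378 to 24452153, so Braf and Mapk8, with 278 to 919 counts a library, carry more counting error than the other genes.

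Testing was limited to genes that reached 10 CPM in more than 3 libraries. Groups, taken from the sample titles, entered a single model of the 6 libraries with TMM scaling, which leaves 3 residual degrees of freedom, tested by quasi-likelihood in edgeR 4.0.16 (R 4.3.3). Normalized CPM refer to TMM-scaled totals, and log2 CPM used a prior count of 1. The study's methods name DESeq2 1.22.2, and DESeq2 1.42.0 served as an alternative here. Other alternatives were the size factors of DESeq2, 3 different filters for low counts, the 2 groups of a comparison only, another threshold, the replicate number as a block, length offsets (lowess, span 0.3), each library left out in turn and, for shares, plain counts. A crossed block, length offsets with the block, and the longest coding transcript (Gencode M21) were added after the data were seen.

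Same-numbered libraries deviated from their group means with correlations of -0.11, -0.26 and 0.05, so the number was not taken as a pairing. The members and the gene lists were chosen with earlier results of these data known. Genes named beside the 7 members are up to 4 of each list with the largest log2 fold change among those past an adjusted p of 0.05, and the 3 genes most correlated with a called member. Positions (mm10) are as the authors' table gives them, and sequences are from RefSeq and Gencode on GRCm38.p6. Some results that the planned comparisons cover are not reported here.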

Additional observations from a re-analysis of the deposited data

How the results depend on the processing

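With 2 libraries a group and 3 residual degrees of freedom, the precision is set by 3 group spreads, of which the TGF-β1 + DMSO spread is the widest. The rise of Map2k1 against vehicle kept its direction in all settings tried, and an adjusted p below 0.05 in those with 2 libraries a group. The replicate number as a block changed no count of members: 1 was called in TGF-β1 + DMSO against vehicle, 0 in TGF-β1 + BI6727 against TGF-β1 + DMSO, and 1 in TGF-β1 + BI6727 against vehicle, so no call was gained or lost by pairing.

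At an adjusted p below 0.05, the count for TGF-β1 + DMSO against vehicle went from 1 to 2 with DESeq2, DESeq2's size factors, each of 3 other filters on low counts and the crossed block, where Hras joined, and to 3 with length offsets, alone or with the replicate block, where Map2k2 joined as well. In that comparison 2186 of all 9518 genes passed in the main fit, 2622 with DESeq2 and 2184 with its size factors. The crossed block passed 2278 and length offsets 3201, or 2946 with the replicate block. The other filters passed 3052 of 14604, 2880 of 17936 and 4015 of 24904 tested genes. For TGF-β1 + BI6727 against vehicle, the count of members went from 3 to 5 when the 2 groups were fitted alone. Over all tested genes it went from 2333 to 5134 there. The called count went from 1 to 2 at an adjusted p below 0.05 with a fold above 1.5. Mapk8 was the gene that joined, at a fold of 1.55 (edgeR adjusted p = 0.0115). The cause of the other shifts was not tested.

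With 1 library left out, the lone library is assumed to vary like the other groups, so counts of members passing are not given for these fits. Without 1 library the log2 fold change of Araf ranged from -0.0617 to 0.15 in TGF-β1 + DMSO against vehicle, from -0.12 to 0.0943 between the treated groups and from -0.0630 to 0.13 in TGF-β1 + BI6727 against vehicle. Between the treated groups Hras ranged from -0.54 to 0.0880, Braf from -0.16 to 0.67, Map2k1 from -0.0088 to 0.0282 and Map2k2 from -0.18 to 0.0949. With DESeq2 or its size factors Map2k1 was at -0.0012 there.

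Shares moved with the length used. In vehicle, TGF-β1 + DMSO and TGF-β1 + BI6727, plain counts gave 34.3%, 46.5% and 47.4% for Map2k1 and 74.1%, 80.1% and 77.7% for Araf. The longest coding transcript gave 34.0%, 46.2% and 47.1% for Map2k1. In vehicle and TGF-β1 + BI6727 it gave 90.7% and 92.2% for Araf.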
